A study of Mus musculus with 10 samples.

Results

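The subunits of the mitochondrial respiratory chain were followed in mouse trigeminal ganglion, as genes of the mitochondrial genome on one side and nuclear genes on the other. Members were taken by symbol: the mitochondrial genes mt-Nd, mt-Co, mt-Cyt and mt-Atp, and the nuclear families Nduf (complex I), Sdh (complex II), Uqcr (complex III) and Cox4 to Cox8 (complex IV). The symbol also had to match the letter and digit pattern of a structural subunit, and the mean over the libraries of an experiment had to reach 0.5 FPKM (fragments per kilobase of gene and per unit of library size). This left 75 genes in either experiment, of 57099 genes listed in the 2 tables. In the surgery experiment 77 genes matched and 74 reached the minimum, 13 mitochondrial and 61 nuclear. In the injection experiment 82 matched and 73 reached it, 11 mitochondrial and 62 nuclear. The pattern takes in mt-Atp6 and mt-Atp8, which belong to the ATP synthase (complex V), and leaves out Cox4i1, Ndufab1, Cyc1 and the cytochrome c gene Cycs. Ndufa4, named for complex I and now placed with complex IV, is counted here by its symbol.

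Complexes I and II pass electrons from NADH and from succinate to ubiquinone, complex III passes them on to cytochrome c, and complex IV hands them to oxygen. Complexes I, III and IV pump protons, and the ATP synthase uses the resulting gradient. Every complex but the second is built from subunits of both genomes: the mitochondrial DNA is transcribed as long RNAs from each strand that are then cut into single messages, while nuclear subunits are made in the cytosol and imported. Sensory neurons, with axons many times the size of their cell bodies, depend on this supply of ATP.

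RNA was sequenced from trigeminal ganglia, which hold the cell bodies of the sensory neurons of the face together with satellite glia, Schwann cells, macrophages and connective tissue. In the surgery experiment, 3 libraries of sham-operated mice (sham) and 3 of mice with the operation that the labels call pIONT were taken on day 10. In the injection experiment, 2 libraries of mice injected into the ganglion with buffer (PBS) and 2 of mice injected with UCN1 (urocortin 1, a peptide of the corticotropin-releasing factor family) were taken after 6 hours. The labels name no strain, no age and no number of animals behind a library, so the p-values speak of the scatter among these libraries alone, and that scatter may be technical. No genotype or drug other than these is named, and the whole ganglion was used. Fewer cells of a type and less RNA per cell cannot be told apart in such tissue.

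A gene is said to be called at a limma adjusted p (Benjamini-Hochberg over all genes tested) under 0.05, and each log2 fold change is a difference of log2(FPKM + 0.5) values. Depth recovered from the FPKM steps was 24.1 to 29.6 M reads for the 6 surgery libraries and 15.7 to 17.1 M reads for the 4 injection libraries. Neuronal markers were high in every library: the 11 listed summed to between 6119 and 7169.96 FPKM in the surgery experiment and between 8406 and 8953 FPKM in the injection experiment. The FPKM of the 2 tables rest on different gene lengths and annotations, so levels are compared only within a table.

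On day 10 after pIONT, a set of nuclear subunit genes was lower than in sham ganglia by a modest amount, and none was called higher. Of 61 nuclear members, 17 fell, against 12.3% of all 14672 genes tested, and 0 rose, against 10.5% of all genes. The 0 holds at an unadjusted limma p under 0.05 and with limma-voom on recovered reads. Relative to the sham mean, Ndufb5 fell by 21.6% and Ndufa10, the called member that changed least, fell by 8.95%. In all, 57 of 61 nuclear members had a log2 fold change below 0, with a median of -0.13, beside a median of -0.02 over all genes. Scaling moved both counts: with TMM factors 51 were below 0 and 7 were called, with median-of-ratios factors 52 and 8, and after rescaling to TPM 59 and 22. Of all calls in this comparison 46.0% were higher as deposited, 57.1% with TMM factors and 36.6% after rescaling to TPM.

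**Figure D1:**
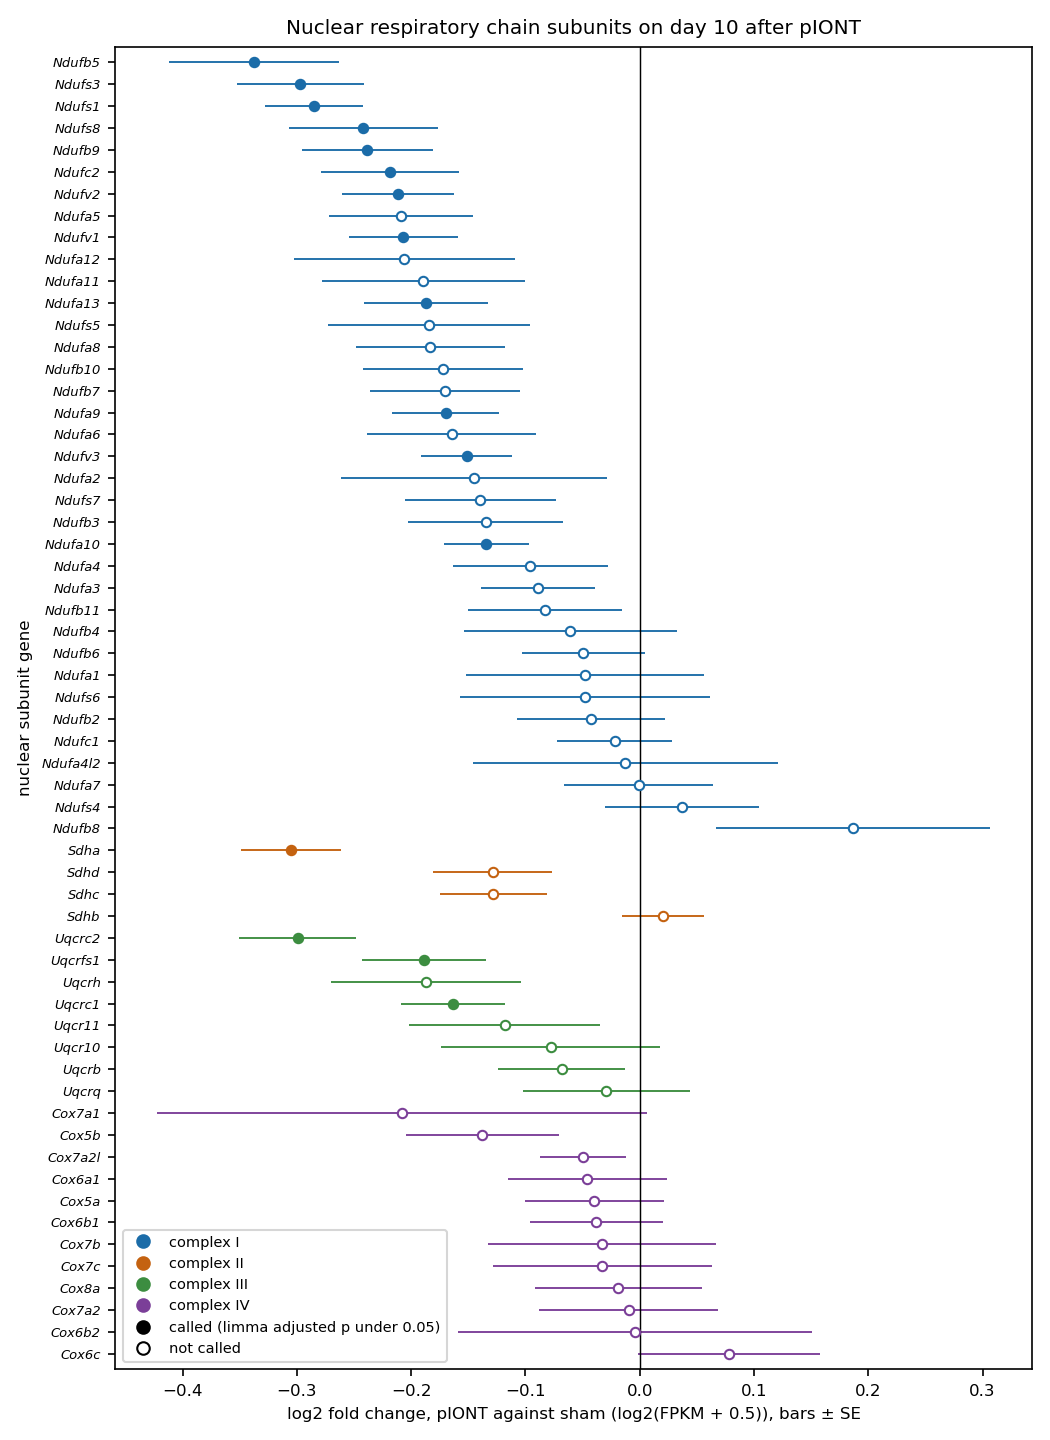
Log2 fold change of 60 of the 61 nuclear subunits, pIONT against sham, with bars of 1 SE from limma (3 libraries a group), ordered within each complex; filled points were called. The 16 called genes drawn lie between -0.34 and -0.13 and belong to complexes I, II and III, while the 12 subunits of complex IV are open points, 11 of them left of 0.

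The lowest p belonged to Sdha, the flavoprotein of succinate dehydrogenase, which takes electrons from succinate and so serves both the citric acid cycle and the respiratory chain. Sdha measured 86.9, 88.4 and 85.2 FPKM in the sham libraries and 71.8, 66.9 and 72.0 FPKM in the pIONT libraries. Every pIONT library lay below every sham library, and the log2 difference was -0.30 ± 0.04 (SE; adjusted p from limma = 0.00490). Its partners in complex II did not pass the test. Sdhb, the iron-sulphur subunit, was 61.2 ± 1.16 FPKM in sham and 62.0 ± 0.645 FPKM in pIONT (SD, n = 3 each), with a log2 fold change of 0.02 ± 0.04 and limma adjusted p = 0.718. The membrane anchors Sdhc and Sdhd did not overlap between groups, at 32.2 to 34.0 against 28.7 to 31.4 FPKM and 96.4 to 101 against 84.6 to 94.6 FPKM, with limma adjusted p of 0.0943 and 0.120.

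The promoters of 4 nuclear subunits are shown. Sdha, Ndufs3 and Ndufb5 had the lowest p of the called members with a single RefSeq window. Ndufs1 and Uqcrc2 had a lower p than Ndufs3 but no window. Sdha had the lowest p of all members, Ndufs3 was called under every setting tried and Ndufb5 had the largest fall. Cox6a1, which was not called, was the nuclear subunit with the highest mean FPKM. Each is the RefSeq window from 250 bases before to 50 bases after the start of transcription, read 5′ to 3′ on the gene's strand in build GRCm38.p6: chr13:74350191-74350490 (minus strand) for Sdha, chr2:90904672-90904971 (minus) for Ndufs3, chr3:32736813-32737112 (plus) for Ndufb5 and chr5:115348909-115349208 (minus) for Cox6a1. Capitals mark matches to the palindromic motif of nuclear respiratory factor 1 (NRF1), or to CCGGAAG, an ETS motif of the kind bound by GABP (NRF2), on either strand.
Sdha: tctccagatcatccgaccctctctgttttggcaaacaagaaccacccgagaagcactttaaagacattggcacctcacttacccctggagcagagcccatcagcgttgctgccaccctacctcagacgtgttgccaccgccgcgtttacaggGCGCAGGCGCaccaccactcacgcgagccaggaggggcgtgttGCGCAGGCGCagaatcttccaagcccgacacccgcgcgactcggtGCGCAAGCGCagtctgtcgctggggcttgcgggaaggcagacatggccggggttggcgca
Ndufs3: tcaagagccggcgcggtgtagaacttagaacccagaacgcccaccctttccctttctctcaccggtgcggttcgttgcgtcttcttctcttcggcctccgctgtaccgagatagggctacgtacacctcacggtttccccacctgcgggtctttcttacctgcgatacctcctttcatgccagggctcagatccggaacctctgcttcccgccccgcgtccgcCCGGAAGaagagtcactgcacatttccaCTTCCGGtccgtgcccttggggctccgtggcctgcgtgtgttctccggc
Ndufb5: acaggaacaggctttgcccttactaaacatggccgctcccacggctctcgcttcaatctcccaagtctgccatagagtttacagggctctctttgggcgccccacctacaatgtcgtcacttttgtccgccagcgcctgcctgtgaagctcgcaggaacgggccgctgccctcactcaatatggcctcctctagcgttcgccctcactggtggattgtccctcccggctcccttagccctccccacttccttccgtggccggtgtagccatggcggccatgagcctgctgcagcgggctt
Cox6a1: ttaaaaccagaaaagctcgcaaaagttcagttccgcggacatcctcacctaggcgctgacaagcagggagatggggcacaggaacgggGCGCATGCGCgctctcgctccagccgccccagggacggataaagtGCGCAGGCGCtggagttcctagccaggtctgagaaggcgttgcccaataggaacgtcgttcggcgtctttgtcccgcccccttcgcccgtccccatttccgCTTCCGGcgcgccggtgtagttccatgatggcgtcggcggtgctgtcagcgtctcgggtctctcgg

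Sdha held 3 matches to the NRF1 motif, Ndufs3 2 to the ETS motif, Cox6a1 2 and 1, and Ndufb5 none of either. A window was at hand for 51 of the 61 nuclear members, 13 of the 17 called ones among them. The NRF1 motif stood in 11 of 51 (21.57%), beside 5.188% of all 27025 genes with a window of that length, and the ETS motif also in 11 of 51, beside 9.928%. Among called members each motif stood in 2 of 13, and among the others in 9 of 38. The motif of the oestrogen-related receptors, AAGGTCA, was found in 4 of 51 (5.38% of all genes), that of YY1, AAGATGGCG, in 5 of 51 (1.639%), and the GC box GGGCGG in 21 of 51 (38.202%). These are matches of letters in a short window and say nothing of binding in the ganglion.

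In complex I, 13 of 37 nuclear members fell and the fall took in most of the catalytic core. Its 7 nuclear core subunits carry the flavin and iron-sulphur clusters or form the ubiquinone site. Of the 7, 6 fell, as did 7 of the 30 others, beside 12.3% of all genes called lower. Ndufs1, the largest iron-sulphur subunit of the NADH-oxidising arm, measured 20.3, 21.6 and 20.9 FPKM in sham and 16.9, 16.8 and 17.6 FPKM in pIONT. The groups were apart, and the log2 difference was -0.29 ± 0.04 (limma adjusted p = 0.00554). Ndufs3, of the arm that leads to ubiquinone, measured 41.9, 45.7 and 43.7 FPKM in sham and 34.2, 34.5 and 37.9 FPKM in pIONT. Again no library overlapped, with a log2 fold change of -0.30 ± 0.06 and limma adjusted p = 0.0114.

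The other core subunits fell by less. Ndufv1, which binds NADH and the flavin, was 71.4 ± 3.55 FPKM in sham and 61.8 ± 1.56 FPKM in pIONT (SD, n = 3 each, limma adjusted p = 0.0236). Its iron-sulphur partner Ndufv2 was 68.7 ± 1.11 and 59.3 ± 3.37 FPKM (limma adjusted p = 0.0238). Ndufs8, next to the ubiquinone site, had a log2 fold change of -0.24. Ndufs7, its neighbour there, did not pass: it was 44.7, 48.5 and 45.0 FPKM in sham and 38.8, 41.2 and 45.5 FPKM in pIONT, where the third pIONT library lay within the sham range.

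Among the accessory subunits of complex I, which surround the core and are needed for its assembly and stability, Ndufb5 had the largest fall of any nuclear member. It measured 14.2, 16.8 and 14.9 FPKM in sham and 11.6, 11.5 and 12.9 FPKM in pIONT, again without overlap. The log2 fold change was -0.34 ± 0.07 (limma adjusted p = 0.0198). Ndufb9, Ndufv3, Ndufa9, Ndufc2, Ndufa10 and Ndufa13 were called too, and relative to the sham mean the largest of these changes was that of Ndufb9, which fell by 15.4%. Ndufa5 lay just outside the threshold, at 48.4 ± 2.88 FPKM in sham and 41.8 ± 2.70 FPKM in pIONT with no overlap (limma adjusted p = 0.0546). The largest positive value belonged to Ndufb8, at 1.75 ± 0.325 FPKM in sham and 2.05 ± 0.191 FPKM in pIONT, with a log2 fold change of 0.19 ± 0.12 and limma adjusted p = 0.305.

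In complex III the 3 core members followed here were called lower. Of the 5 small subunits 0 were called, beside 12.3% of all genes called lower, though all 5 had a log2 fold change below 0. Whether core and small subunits differ was not tested. Cyc1, the cytochrome c1, lies outside the symbol pattern and is given below. Uqcrc2, a core protein that scaffolds the matrix side, measured 70.9, 72.4 and 69.0 FPKM in sham and 58.0, 53.9 and 60.5 FPKM in pIONT. All pIONT libraries were below all sham libraries, with a log2 fold change of -0.30 ± 0.05 (limma adjusted p = 0.00865). Uqcrc1, its partner, was 55.1 ± 2.41 and 49.1 ± 1.13 FPKM (limma adjusted p = 0.0411), and Uqcrfs1, the Rieske iron-sulphur protein, was 88.8 ± 5.66 and 77.8 ± 2.04 FPKM (limma adjusted p = 0.0460). The small subunits Uqcrh, Uqcr11, Uqcr10, Uqcrb and Uqcrq had log2 fold changes of -0.19 to -0.03.

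None of the 12 nuclear members of complex IV was called, beside 12.3% of all genes called lower and 10.5% higher. At an unadjusted limma p under 0.05 there were 0, beside 20.6% lower and 16.5% higher, and limma-voom called 0. Whether complex IV differs from the other complexes was not tested. In a single alternative, without pIONT 3, 1 of the 12 was called lower (Cox5b). Cox5b, which lies on the matrix side, came closest: it was 109 ± 4.29 FPKM in sham and 99.5 ± 8.51 FPKM in pIONT, with a log2 fold change of -0.14 ± 0.07 and limma adjusted p = 0.182. Cox5a had 55.5 ± 3.87 and 54.0 ± 2.26 FPKM. The abundant forms of the isoform pairs hardly differed between the group means: Cox6a1 was 354 to 402 and 340.1 to 388 FPKM, Cox8a 328 ± 22.7 and 324 ± 22.7 FPKM, Cox6b1 273 ± 9.95 and 267 ± 16.4 FPKM, and Cox7a2 146 ± 5.76 and 146 ± 14.8 FPKM. These 4 log2 fold changes, from -0.05 to -0.01, were of the size of the scaling differences and changed sign under some settings. Cox7a2l, a paralogue of Cox7a2 that acts in supercomplex assembly, measured 92.3, 88.1 and 89.9 FPKM in sham and 85.6, 87.8 and 87.6 FPKM in pIONT, apart by a small margin (limma adjusted p = 0.383). Ndufa4 measured 201, 219.7 and 198 FPKM against 178, 195 and 206 FPKM, with overlap.

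The forms of these subunits typical of heart and skeletal muscle were low. Cox7a1 measured 2.46 to 5.01 FPKM in sham and 2.56 to 3.33 FPKM in pIONT, while Cox6a2 and Cox8b stayed below the minimum, with means of 0.364 and 0.183 FPKM over the 6 libraries. Cox6b2, the form typical of testis, was 1.38 to 2.10 FPKM in sham and 1.45 to 2.01 FPKM in pIONT. The 14 skeletal muscle genes listed summed to 6.35 to 7.71 FPKM in sham and 5.97 to 7.93 FPKM in pIONT. The lowest member to reach the minimum was Ndufa4l2, a paralogue of Ndufa4 known for its induction by low oxygen, with a mean of 1.07 FPKM, and the highest that did not was Cox7b2, with 0.413 FPKM.

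Across the list of 16 nuclear core subunits (7 of complex I, 4 of complex II, 3 of complex III, Cox5a and Cox5b), 10 fell, with a median log2 fold change of -0.19. Of the 45 others 7 fell, with a median of -0.08. Over all genes 12.3% were called lower, and a share near this is no result about a group of subunits. Gene length went with the calls: called members, core or not, had a median exon length of 2313 bases and members not called one of 1172.5 bases. The SE was smaller for the called genes too, with a median of 0.05 against 0.07 on the log2 scale. Over the 61 members the spread between libraries fell with length (Spearman rho -0.48), while the fold change was only weakly related to it (rho -0.14). These values are a description across genes that share the same libraries, and whether core subunits differ from the others was not tested.

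**Figure D2:**
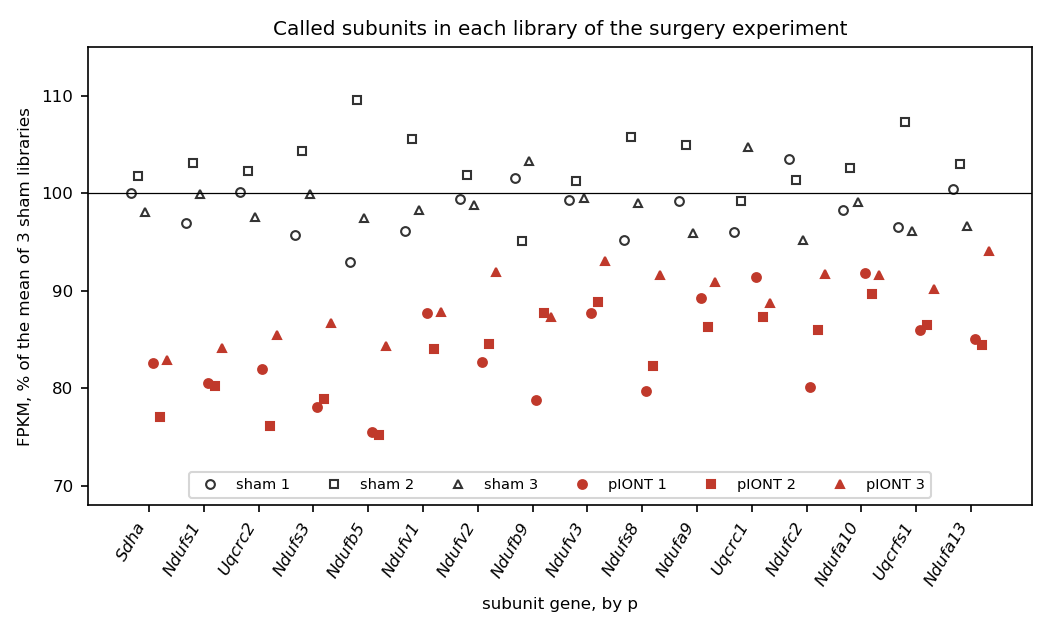
FPKM of 16 of the 17 called nuclear subunits in each library of the surgery experiment, as percent of the mean of the 3 sham libraries (open black symbols sham, filled red symbols pIONT; the shape gives the replicate number). In each of the 16 genes the 3 red points lie below the 3 black points.

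Within a group, many of these genes were high or low in the same library. Among sham libraries, sham 2 was the highest in 47 of 61 nuclear members, beside 32.1% of all genes. Among pIONT libraries, pIONT 1 was the lowest in 45 of 61 nuclear and in 12 of 13 mitochondrial members, beside 30.7% of all genes, and pIONT 3 the highest in 41 of 61 nuclear members. The sum over the 61 nuclear members was 4780, 5119.6 and 4775 FPKM in sham and 4259, 4565 and 4802 FPKM in pIONT, so the sum of pIONT 3 lay within the sham range.

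The number of nuclear members called lower changed when a library was left out. Without sham 1 it was 7, without sham 2 it was 6, without sham 3 it was 4, without pIONT 1 it was 4, without pIONT 2 it was 5 and without pIONT 3 it was 17. Calls lower over all genes dropped as well, from 1807 with all libraries to 1042, 989, 767, 1256, 1204 and 1580 in that order. Without pIONT 1, 45 of 61 nuclear members remained below 0, and without sham 2, 46. Sdha, Ndufs1, Ndufs3 and Uqcrc2 were called in each of the 17 alternatives tried, leave-one-out fits included, with log2 fold changes between -0.35 and -0.25. The other 13 were each called in 7 (Ndufa9, Uqcrc1, Ndufa10 and Uqcrfs1) to 14 (Ndufb5) of them.

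Some of the called genes share sequence with others, and no source used here gives the strand of the counting. In the GENCODE annotation of GRCm38, exons of an opposite-strand neighbour cover 30.0% of the exon bases of Ndufa13 (Tssk6), 19.7% of Uqcrc2 (Pdzd9), 12.3% of Ndufb5 (Mrpl47) and 6.16% of Ndufs1 (Eef1b2 and Ino80dos). On the same strand, Gm49356 covers 19.5% of Ndufb9. Ndufs3 has a processed copy, Gm12251, at 98.2% identity over 87.6% of its length, which measured a mean of 0.0593 FPKM in the injection experiment. The part of such reads in the values was not tested.

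Genes around the respiratory chain were counted in the same fit, on lists written with earlier results of these data known; 10.5% of all genes were called higher and 12.3% lower, and shares near these are no result about a list. Of 16 citric acid cycle genes, 8 fell and 0 rose, with a median log2 fold change of -0.17. Fh1, fumarate hydratase, had a log2 fold change of -0.26 and Idh3g, a subunit of isocitrate dehydrogenase, one of -0.24.

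Of 18 nuclear ATP synthase genes 4 fell and 0 rose, beside 12.3% and 10.5% of all genes, with a median of -0.11. Atp5a1, the alpha subunit of the catalytic head, went from 317 to 322 FPKM in sham to 254 to 276 FPKM in pIONT (log2 fold change -0.27, limma adjusted p = 0.00887). Subunits that the symbol pattern left out gave 2 of 8 lower: Cyc1, the cytochrome c1 of complex III, with a log2 fold change of -0.21, and Cox4i2, the form of Cox4 tied to low oxygen, with -0.47. The assembly factors of complex I gave 3 of 15 lower (Ndufaf3 with -0.38, Ndufaf6 with -0.26 and Ndufaf2 with -0.22), and those of complexes II to IV 1 higher (Ttc19, 0.24) and 1 lower (Bcs1l, -0.21) of 27.

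Among 10 regulators of respiratory genes, 2 fell and 0 rose, near the 12.3% and 10.5% of all genes. Sirt3, a mitochondrial deacetylase, had a log2 fold change of -0.35 ± 0.06 (limma adjusted p = 0.0111). Esrra, a nuclear receptor that acts on many of these genes, had -0.29 ± 0.05 (limma adjusted p = 0.0124). Of 9 genes that maintain mitochondrial DNA, 0 were called with limma, and 1 was higher and 2 lower at an unadjusted p under 0.05. Mitochondrial transcription and RNA handling gave 1 higher (Rexo2, 0.21) and 1 lower (Lrpprc, -0.20) of 18. Mitochondrial import and outer membrane genes gave 1 higher (Vdac3, 0.21) and 3 lower of 12, Tomm20 and Timm44 among them. In glycolysis, 2 of 18 identifiers (17 symbols) rose, Pgk1 with 0.27 among them, and 5 fell, led by Ldhb with -0.65 and Aldoc with -0.53.

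Markers of cell types moved between the same groups. Over all genes 10.5% were called higher and 12.3% lower, and shares near these are no result about a cell type. The 11 macrophage markers summed to 173 to 323 FPKM in sham and 376 to 903 FPKM in pIONT, and 7 rose, Csf1r, Ctss and Cx3cr1 among them. Of 7 markers of myelinating Schwann cells, 5 fell, with sums of 4519.7 to 5007 FPKM in sham and 3743 to 4016 FPKM in pIONT; Mbp had a log2 fold change of -0.43 and Pmp22 of -0.34. Of 11 neuronal markers, 4 rose, led by Tubb3 with 0.89, and 6 fell, Isl1 with -0.47 among them. Of 7 satellite glia markers, 2 rose and 1 fell, with sums of 948 to 1032 and 978 to 1014 FPKM. Pituitary genes summed to 80.8 to 767 FPKM in sham and 117 to 132 FPKM in pIONT, and red cell genes to 101 to 402 and 85.0 to 258 FPKM, with 0 of 5 called in each list with limma and 0 at an unadjusted p under 0.05. The part of these shifts in the values of the subunits was not tested.

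The mitochondrial-encoded members showed no called difference on day 10. Of 13, 0 were called with limma, 1 was higher and 1 lower at an unadjusted p under 0.05 (beside 16.5% and 20.6% of all genes), and limma-voom called 0. The median log2 fold change was -0.13, the same to 2 decimals as that of the nuclear members. Between groups 3 did not overlap (43.4% of all genes in either direction), and these were lower in pIONT (mt-Nd2, mt-Cytb and mt-Co3), beside 24.7% of all genes; 23 of 61 nuclear members were likewise apart and lower, and 0 apart and higher, beside 18.7%. The sum of the 13 was 17383, 16826 and 17344 FPKM in sham and 15508, 16356 and 17620.4 FPKM in pIONT.

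Most of that sum came from mt-Co1, mt-Cytb and mt-Nd1. mt-Co1, the catalytic subunit of complex IV, measured 6389, 5979 and 6235 FPKM in sham and 5951, 6386 and 6521 FPKM in pIONT, with overlapping groups (log2 fold change 0.02 ± 0.08). mt-Cytb, the cytochrome b of complex III, measured 3589, 3515 and 3594 FPKM in sham and 3056, 3140.1 and 3449 FPKM in pIONT. Those groups were apart, but the log2 fold change of -0.15 ± 0.07 did not pass (limma adjusted p = 0.171). mt-Nd1 was 2586 ± 35.0 and 2501 ± 214 FPKM.

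The other complex I genes of the mitochondrial genome had wide pIONT spreads. mt-Nd2 measured 1463, 1439 and 1467 FPKM in sham and 1247, 1245 and 1431 FPKM in pIONT (limma adjusted p = 0.151), mt-Nd4 1222 ± 32.7 and 1118 ± 102 FPKM, and mt-Nd5 981 ± 22.4 and 884 ± 81.6 FPKM. mt-Nd6, the single message of the light strand among them, was 879 ± 22.5 and 911 ± 73.0 FPKM. In mt-Nd2, mt-Nd4 and mt-Nd5 the third pIONT library was the one near the sham values. Without pIONT 3, mt-Nd2 and mt-Nd5 were called lower, and the median of the 13 was -0.20; without sham 3 it was -0.06 and without pIONT 1 -0.08. mt-Nd3 and mt-Atp8 were called higher without pIONT 1, and mt-Nd4l lower without sham 1.

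The level of a mitochondrial gene in these tables went with the presence of a copy of it in the nuclear genome. A stretch of mitochondrial DNA lies on chromosome 1 (GRCm38 chr1:24611535-24616197) and holds copies of at least 99% identity over at least 95% of the length of mt-Co2, mt-Atp6, mt-Co3, mt-Nd3 and mt-Nd4l. By its place in that stretch mt-Atp8 falls inside it too (chr1:24614609-24614812). These 6 genes measured 4.11 to 132 FPKM in the surgery experiment, and the other 7 measured 836 to 6521 FPKM, with no overlap. In the injection experiment the ranges were 0 to 12.9 FPKM and 36.3 to 9901 FPKM. The stretch covers 31.3% of mt-Co1 and 63.6% of mt-Nd4 as well. The copies have values of their own in the injection experiment. Gm10925, the copy of mt-Atp6, measured 19.5 and 17.9 FPKM in PBS and 16.95 and 10.4 FPKM in UCN1. It lay above mt-Atp6 in every library, as did Gm28438 above mt-Nd3. Gm28437, the copy of mt-Co3, lay below mt-Co3 in every library. Gm28661 and Gm10222, the copies of mt-Co2 and mt-Nd4l, lay above their genes in some libraries and below them in others. No source used here says how reads that match in several places were counted.

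The following pairs show what a short read meets at such a gene. mt-Nd3 (chrM:9459-9578, plus strand) is set beside its chromosome 1 copy Gm28438 (chr1:24613000-24613119, minus strand), and mt-Cytb (chrM:14745-14864, plus strand), which lies outside that stretch, beside its best nuclear copy Gm11410 (chr4:80004589-80004708, plus strand). All are GRCm38, 120 bases each, and capitals mark the bases at which the copy differs.
mt-Nd3: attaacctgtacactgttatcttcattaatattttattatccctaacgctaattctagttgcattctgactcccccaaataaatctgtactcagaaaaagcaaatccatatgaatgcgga
Gm28438: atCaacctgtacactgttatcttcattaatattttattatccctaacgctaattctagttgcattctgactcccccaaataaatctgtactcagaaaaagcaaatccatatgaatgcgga
mt-Cytb: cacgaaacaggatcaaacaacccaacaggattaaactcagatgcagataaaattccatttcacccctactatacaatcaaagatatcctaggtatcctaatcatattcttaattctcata
Gm11410: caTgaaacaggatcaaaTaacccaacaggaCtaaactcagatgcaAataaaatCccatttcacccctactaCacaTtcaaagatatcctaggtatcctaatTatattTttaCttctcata

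mt-Nd3 and its copy differ by 1 base in the 120 shown and by 1 in all 345 compared, T3C counted from the first base of the gene. mt-Co2 and its copy Gm28661 differ by 0 of 681 bases. The stretch of mt-Cytb differs from Gm11410 by 10 of 120 bases. mt-Nd3 measured 7.65, 7.00 and 7.39 FPKM in sham and 6.63, 9.66 and 9.12 FPKM in pIONT, while mt-Cytb was never below 3056 FPKM in the same 6 libraries. For the 6 genes inside the stretch, FPKM in these tables is therefore not read as the level of the message, and they are uncertain in each comparison. mt-Nd4 and mt-Co1 are covered in part, and what this does to their values was not tested.

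mt-Atp8 had the largest positive value of the mitochondrial set, at 4.11, 4.43 and 4.27 FPKM in sham and 4.41, 6.72 and 9.44 FPKM in pIONT, where the lowest pIONT library lay within the sham range (log2 fold change 0.57 ± 0.23, limma adjusted p = 0.118). mt-Co3, a core subunit of complex IV, measured 74.4, 82.9 and 85.7 FPKM in sham and 61.9, 73.2 and 72.9 FPKM in pIONT (-0.22 ± 0.08, limma adjusted p = 0.0946). Those groups were apart, and mt-Co3 was called lower after rescaling to TPM. mt-Co2, mt-Atp6 and mt-Nd4l overlapped between groups, at 90.0 to 132 against 79.1 to 101 FPKM, 71.1 to 74.6 against 67.0 to 83.7 FPKM and 18.7 to 24.7 against 17.6 to 20.6 FPKM.

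**Figure D3:**
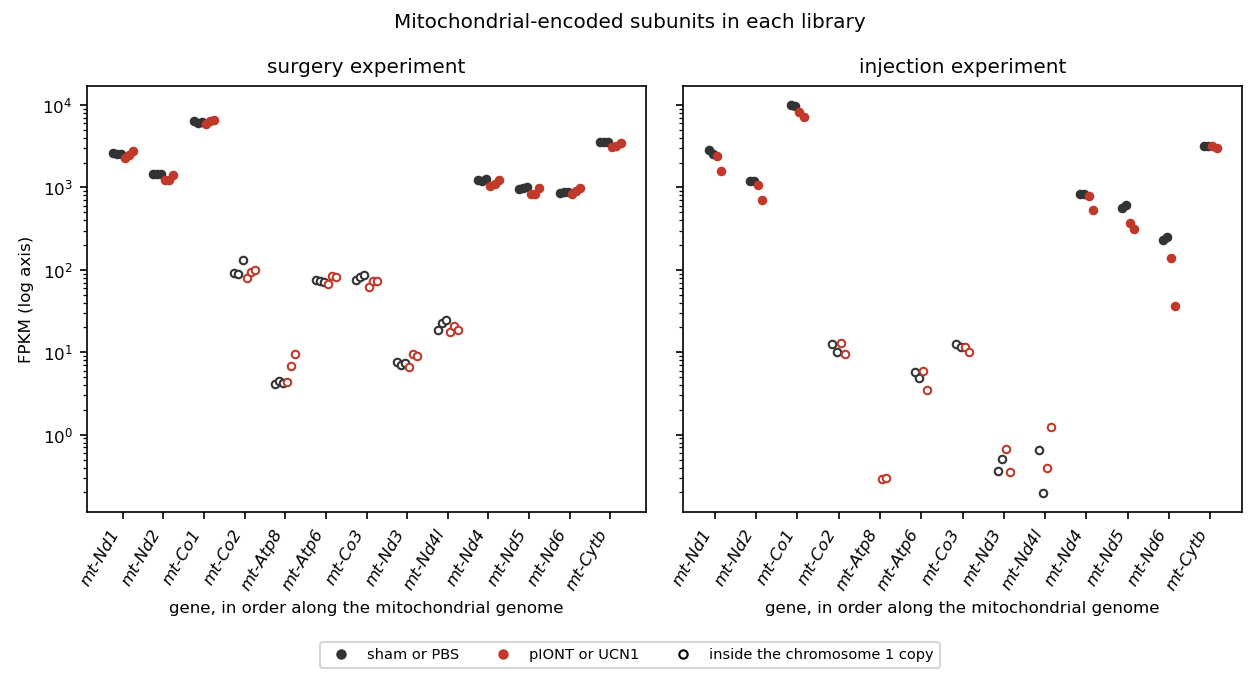
FPKM (log axis) of the 13 mitochondrial-encoded genes in each library, in order along the mitochondrial genome, for the surgery experiment (left) and the injection experiment (right); black points are sham or PBS, red points pIONT or UCN1, and open points are the 6 genes inside the chromosome 1 copy. The open points lie below the filled points of the same panel. mt-Atp8 was listed at 0 in both PBS libraries, which a log axis cannot show.

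At 6 hours after injection, 1 mitochondrial-encoded gene, mt-Nd5, was called lower in UCN1 than in PBS, and no nuclear member was called. Of 11 mitochondrial members 1 fell, beside 0.297% of all 16139 genes tested, and 0 rose, beside 0.304% (0.601% in either direction). With no overlap between groups 7 of 11 were lower, beside 23.7% of all genes, and 0 higher, beside 21.8%. At an unadjusted p under 0.05 there were 6 of 11 lower, beside 6.73%, and 0 higher, and limma-voom on recovered reads called 3 lower (mt-Nd5, mt-Nd6 and mt-Co1). The median log2 fold change was -0.35, beside -0.01 over all genes. These counts and the median include mt-Co2, mt-Co3, mt-Atp6 and mt-Nd4l, which lie inside the chromosome 1 copy and are uncertain. mt-Co3 was among the 7 without overlap.

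The call was mt-Nd5, a proton-pumping subunit of complex I (chrM:11742-13565, plus strand). It measured 565 and 615 FPKM in PBS and 372 and 317 FPKM in UCN1, so both UCN1 libraries lay well below both PBS libraries. The log2 fold change was -0.78 ± 0.10 (SE, limma adjusted p = 0.0223), a fall of 41.6% from the PBS mean. It was called in 10 of the 15 alternatives and had a log2 fold change between -0.89 and -0.66 in all of them. Leaving out any 1 of the 4 libraries ended the call, but such a fit has a single library in 1 group. The log2 fold change was then -0.84 without PBS 1, -0.72 without PBS 2, -0.89 without UCN1 1 and -0.66 without UCN1 2. Testing without a minimum level ended the call too (limma adjusted p = 0.344), with 2 of all genes called lower and 0 higher.

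mt-Nd6, on the opposite strand next to mt-Nd5 (chrM:13552-14070), had the lowest value of all members. It measured 229 and 248 FPKM in PBS, 140.0 FPKM in UCN1 1 and 36.3 FPKM in UCN1 2, with a log2 fold change of -1.73 ± 0.49 (limma adjusted p = 0.206). Both UCN1 libraries were below both PBS libraries, but they were far apart from each other. mt-Nd6 was called with limma-voom on recovered reads (adjusted p = 0.00197) and with the replicate number as a block (limma adjusted p = 0.0293). Its log2 fold change was -2.70 without UCN1 1 and -0.77 without UCN1 2. Each of these fits rests on 1 UCN1 library, so no p is given for them.

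Of the other abundant mitochondrial genes, mt-Co1 measured 9901 and 9794 FPKM in PBS and 8322 and 7173 FPKM in UCN1, with both UCN1 libraries below both PBS libraries (limma adjusted p = 0.231). mt-Nd1 measured 2827 and 2534 FPKM against 2408 and 1573 FPKM, mt-Nd2 1181 and 1190.1 against 1065 and 697 FPKM, and mt-Nd4 829.8 and 841 against 786 and 527 FPKM, with limma adjusted p of 0.328, 0.315 and 0.379. In mt-Nd1, mt-Nd2 and mt-Nd4 the gap from UCN1 1 to UCN1 2 was wider than that from the PBS libraries to UCN1 1. mt-Cytb measured 3193 and 3226 FPKM in PBS and 3214 and 2998 FPKM in UCN1, with groups that overlap and a log2 fold change of -0.05 ± 0.09.

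**Figure D4:**
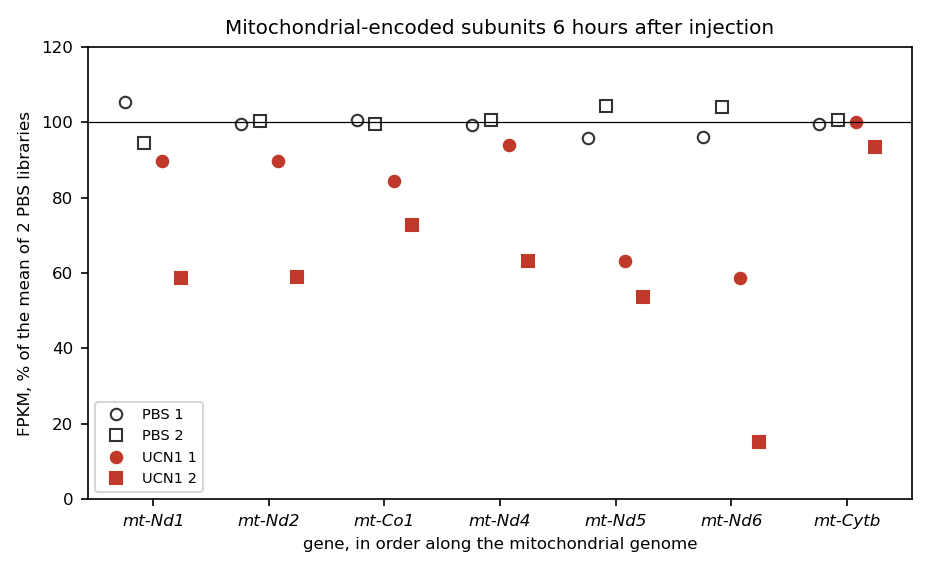
FPKM of the 7 mitochondrial-encoded genes other than the 6 inside the chromosome 1 copy, in the 4 libraries of the injection experiment. Values are percent of the mean of the 2 PBS libraries (open black PBS, filled red UCN1, circles replicate 1, squares replicate 2). The copy covers 63.6% of mt-Nd4 and 31.3% of mt-Co1. The red squares of UCN1 2 lie lowest in each gene, with mt-Nd6 furthest down, and mt-Cytb lies near the PBS mean.

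The sum of the 11 was 18758 and 18475 FPKM in PBS, 16339 FPKM in UCN1 1 and 13346 FPKM in UCN1 2. UCN1 2 was the lower of the UCN1 libraries in 10 of 11 mitochondrial members, beside 48.1% of all genes. Without UCN1 2 the median log2 fold change was -0.12, and without UCN1 1 it was -0.55. The ribosomal RNAs of the mitochondrion differed more by replicate number than by group, and within each number the UCN1 library was the lower. mt-Rnr1 measured 244 and 129 FPKM in PBS and 224 and 112 FPKM in UCN1, and mt-Rnr2 234 and 113 against 172 and 86.7 FPKM. The genes inside the chromosome 1 copy stayed at 0 to 12.9 FPKM. mt-Nd4l, the lowest member to reach the minimum, rested on 3, 1, 2 and 6 reads, and mt-Nd3 lay just under it, with a mean of 0.474 FPKM.

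None of the 62 nuclear members was called 6 hours after UCN1, with limma or with limma-voom. At an unadjusted limma p under 0.05, 13 were higher, beside 6.36% of all genes, and 1 was lower, beside 6.73%. With no overlap between groups, 29 were higher, beside 21.8% of all genes, and 5 lower, beside 23.7%. The log2 fold change was above 0 in 50 of 62, with a median of 0.13, and in 44 of 62 after rescaling to TPM. The sum of the 62 was 4229.8 and 4362 FPKM in PBS and 4531 and 4789 FPKM in UCN1.

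The largest positive values belonged to small subunits. Ndufa1, a small membrane subunit of complex I encoded on the X chromosome, measured 14.6 and 13.6 FPKM in PBS and 19.7 and 20.5 FPKM in UCN1, with a log2 fold change of 0.50 ± 0.11 and limma adjusted p = 0.123. Ndufa2 measured 12.7 and 11.8 against 16.1 and 16.8 FPKM (0.41 ± 0.12), and Ndufs4 26.7 and 31.9 against 42.7 and 35.6 FPKM (0.41 ± 0.13). In all 3 the groups did not overlap, and none passed the test.

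In complexes III and IV the same held for Uqcr10, a small subunit of complex III, at 43.6 and 40.3 FPKM in PBS and 50.6 and 57.6 FPKM in UCN1 (0.36 ± 0.10, limma adjusted p = 0.212). Cox6b1, which bridges the monomers of complex IV, was 127 and 117 against 151 and 152 FPKM (0.31 ± 0.08, limma adjusted p = 0.189). Over the 16 core subunits the median log2 fold change was 0.08 and over the 46 others 0.14, and the difference was not tested. Cox5a (0.26) and Ndufv1 (0.23) were the highest core members, with limma adjusted p of 0.341 and 0.301. Sdha measured 408 and 429 FPKM in PBS and 405 and 437 FPKM in UCN1, and Ndufs1 88.8 and 77.8 against 81.0 and 84.1 FPKM, in both cases with overlapping groups. The lowest values were those of Ndufb4c (2.29 and 1.80 against 1.20 and 0.932 FPKM, -0.70 ± 0.26), whose sequence is identical to that of Ndufb4 over its whole length, of Ndufa4l2 (-0.29 ± 0.29), of Cox6b2 (-0.23 ± 0.23) and of Uqcrc2 (-0.11 ± 0.08).

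No gene of the pathway lists below was called in this experiment, beside 0.304% of all genes called higher and 0.297% lower. At an unadjusted limma p under 0.05, 6.36% of all genes were higher and 6.73% lower, and shares near these are no result about a list. ATP synthase had 0 of 18 called with limma, 8 higher at an unadjusted p under 0.05 and a median log2 fold change of 0.19; Atp5a1 was 418 and 438 FPKM in PBS and 437 and 462 FPKM in UCN1. The citric acid cycle had 0 of 16 called, 1 higher and 2 lower at an unadjusted p under 0.05 and a median of -0.03. Assembly factors of complex I had 0 of 15 called and a median of 0.04, and those of complexes II to IV 0 of 24 and 0.04.

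Markers of tissue beside the ganglion differed between the injected groups, where 0.304% of all genes were called higher and 0.297% lower. The 7 pituitary genes listed summed to 123 to 124 FPKM in the PBS libraries and to 9.14 to 9.61 FPKM in the UCN1 libraries, and 3 of 5 tested fell, Gh, Prl and Pomc; Lhb was at 0 in every library. Of 9 genes of fibroblasts and meninges 3 fell, Mfap4, Slc47a1 and Fmod, while the sum of the 9 was 887 to 1166 FPKM in PBS and 872 to 892 FPKM in UCN1. Neuronal markers summed to 8406 to 8906 FPKM in PBS and 8847 to 8953 FPKM in UCN1, with 0 of 11 called. The part of such tissue in the values of the subunits was not tested.

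Set side by side, the nuclear members mostly had a negative value in 1 experiment and a positive one in the other, and the experiments share no libraries. Of the 61 nuclear members tested in both, 47 had a log2 fold change below 0 after pIONT and above 0 after UCN1, 10 were below 0 in both, 3 above 0 in both and 1 above 0 after pIONT and below 0 after UCN1. As 57 of 61 were below 0 after pIONT and 50 of 62 above 0 after UCN1, a count of 47 needs no link between the experiments. Across these 61 genes the fold changes were hardly related (Pearson r 0.10, Spearman rho 0.16), as a description across genes measured in the same libraries. Sdha, at -0.30 after pIONT, had 0.01 ± 0.08 after UCN1, Ndufs3 had 0.20 ± 0.11 and Uqcrc2 had -0.11 ± 0.08. The difference between the experiments was not tested, since surgery, time, table and annotation all differ with it.

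**Figure D5:**
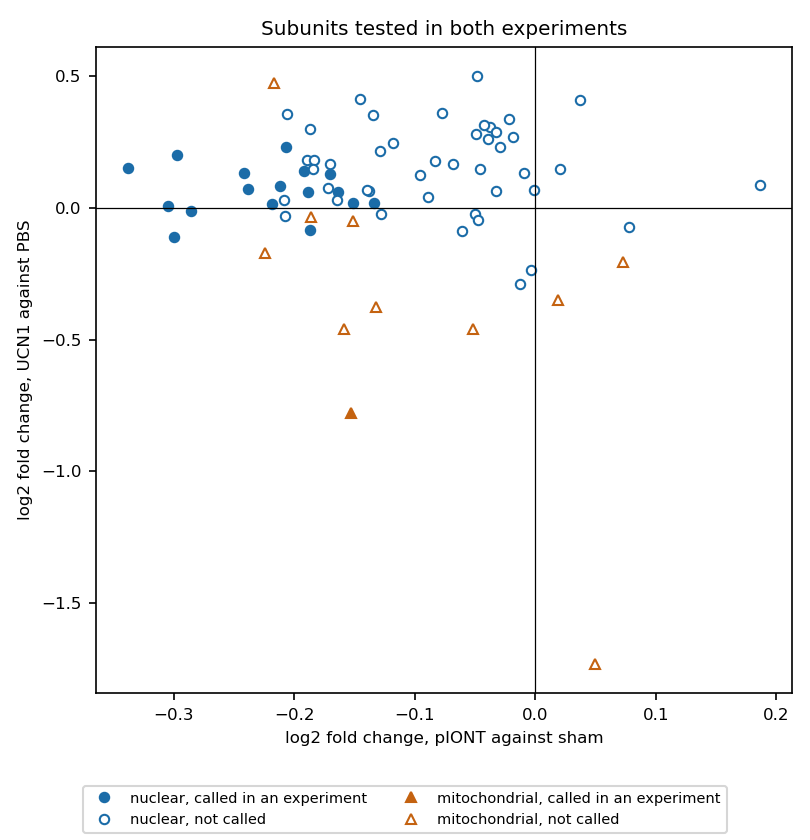
Log2 fold change on day 10 after pIONT (x axis) against that 6 hours after UCN1 (y axis) for the 72 subunits tested in both experiments; blue circles are nuclear and orange triangles mitochondrial, filled where called in an experiment. Most nuclear points lie left of 0 and above 0, and mt-Nd6 is the triangle at -1.73 on the y axis.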

How the data were processed

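RNA of mouse trigeminal ganglia was extracted with TRIzol and made into libraries with the NEBNext Ultra II kit, per the labels' protocols. STAR, HTSeq, DESeq2 and the build GRCm39 are named, per the submitters' processing notes; the settings used, the strand of counting and the gene lengths are not given in the sources used here. FPKM per gene and library were deposited by the authors in 2 tables. Of the coordinates in the injection table, nearly all are those of a GRCm38 annotation, so coordinates and sequences are given in that build.

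From these values log2(FPKM + 0.5) was tested with limma 3.58.1 in R 4.3.3, for genes with a mean of at least 0.5 FPKM, separately in each table and over all genes, with a Benjamini-Hochberg threshold of 0.05. Reads were recovered from FPKM steps: 91.8% to 92.2% of low values (up to 20 reads) came out whole within 0.1 in the surgery table, and 98.8% to 99.0% in the injection table. Copies were found with BLAST+ 2.17.0, and other steps ran in Python 3.11.15. The tests were tested on simulated data. The members and lists were chosen with earlier results of these data known.

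Named are all mitochondrial members, called nuclear members (at most 8 per complex by p), the 4 largest rises and falls, core subunits, isoform pairs, members at the minimum, and up to 3 genes of each list; others were named after their values were seen. Values of 2 genes that the rule covers are not reported here, though counts include them. Alternatives were other pseudocounts (0.1 and 1), no filter or one at 2 FPKM, TPM, TMM and median-of-ratios scaling, array weights, a replicate block and leaving out each library; limma-voom on recovered reads was chosen after seeing the data.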

Additional observations from a re-analysis of the deposited data

How the results depend on the processing

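No result changed direction with a call on both sides; sign changes of members that were called under neither setting are not counted as such. Of the values of single members under an alternative, 1130 kept their side of the threshold after pIONT, 101 lost a call and 24 gained one; after UCN1 these were 1080, 5 and 4. The 17 nuclear calls after pIONT became 10 without a filter, 8 with median-of-ratios scaling and 7 with TMM scaling, and 4 to 17 when 1 library was left out. Over all genes the calls lower ran from 767 to 1580 in those leave-one-out fits, beside 1807 with all libraries. The 0 mitochondrial calls lower after pIONT became 1 with TPM and 1 with TPM over genes that are not mitochondrial-encoded (mt-Co3), and 0 to 2 when 1 library was left out; the calls higher became 0 to 2, and the median ran from -0.20 to -0.06 (-0.0554 without sham 3). After UCN1 the 1 mitochondrial call became 0 without a filter and 3 with limma-voom. mt-Nd5 was not called in any fit that left out 1 library, each of which kept a single library in 1 group. The median of the nuclear members became 0.0904 and their summed log2 ratio 0.0757 with TPM over genes that are not mitochondrial-encoded, and that ratio ran from 0.0768 to 0.157 when 1 library was left out. No scaling moved the median of all genes by over 0.1. The cause of these changes was not tested.

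Samples with the same replicate number did not deviate together over all genes in the surgery experiment (r of -0.06, -0.20 and 0.07). In the injection experiment r was 0.04 in both pairs, which is a single value with 2 libraries a group. That value cannot decide whether the numbers pair the injection samples, and mt-Rnr1 and mt-Rnr2 split by replicate number there. With the replicate block, 5 nuclear members and 1 mitochondrial member (mt-Co3) were called lower after pIONT, and 2 mitochondrial members (mt-Nd5 and mt-Nd6) after UCN1. Over all genes the block gave 124 calls higher and 136 lower after UCN1, beside 49 and 48 without it. After pIONT it gave 1053 higher and 1032 lower, beside 1537 and 1807. mt-Nd4l rested on 3 reads or fewer in 3 of 4 injection libraries, so no difference in it was detectable at this depth.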
